A study of Mus musculus with 8 samples.

Results

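H3K4me3 was compared between menin-null and wild-type (wt) mouse embryonic stem cells (mESCs) in 4 of the 8 libraries of the series, chosen by their labels: 1 chromatin immunoprecipitation and sequencing (ChIP-Seq) library and 1 library of input chromatin of each genotype. The wt cells were the line TC-1, and the menin-null cells, which carry a knockout of Men1, were the line 3.2N, both on a 129S6/SvEvTac background. Both lines were kept with leukemia inhibitory factor on irradiated feeder cells, freed of the feeders by short rounds of plating and then grown on gelatin. The other 4 libraries came from pancreatic islet-like endocrine cells (PILECs) made in vitro from the same 2 lines, and they entered only where the promoters found in mESCs were looked up in libraries that had not been used to find them. Each genotype was 1 line in 1 library, so genotype, line and library cannot be told apart, and every test here compares libraries and not conditions.

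Menin, the product of Men1, is a subunit of the MLL1 and MLL2 histone methyltransferase complexes, which place trimethyl marks on lysine 4 of histone H3 (H3K4me3). The mark sits on nucleosomes around the transcriptional start site (TSS) of active genes and, in mESCs, also on many silent genes of development whose promoters are CpG islands and carry Polycomb marks as well. In ES cells the SET1 complexes, which lack menin, place much of the H3K4me3 found at active promoters.

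The H3K4me3 libraries held 2432377 tags, which are reads with a unique place in the genome, in wt and 3517028 in menin-null mESCs, and the inputs held 4248298 and 3744616. Tags that repeated a position and strand made up 11.4% of the wt and 4.17% of the menin-null H3K4me3 library. Regions enriched for H3K4me3 took 38.5% of the wt and 46.9% of the menin-null tags. Over exons 3 to 8 of Men1 (chr19:6336725-6338961, mm9) there were 17 input tags from wt and 0 from menin-null mESCs, where a count of 0 allows up to 3. The Men1 promoter, which lies outside these exons, had 65 H3K4me3 tags in wt and 138 in menin-null mESCs, or 26.7 and 39.2 tags per 1000000 tags of the library (RPM). Promoters of all 10 ES cell markers on the list used, among them Pou5f1, Sox2 and Nanog, were marked in both lines, with 458 RPM in sum in wt and 583 in menin-null mESCs. Of 11 feeder fibroblast markers 4 were marked. All 11 together had 58.4 and 69.7 RPM in sum, and Col3a1, Dcn and Lum had no tag in menin-null mESCs.

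The mark at promoters was alike in the 2 lines for most genes. A promoter was taken as the 1 kb on either side of the annotated TSS with the most tags and called marked with at least 20 tags from both libraries together, which 15212 of 26212 annotated genes (58.0%) reached, with a median of 190 tags. The log2 ratio of RPM, menin-null over wt, had a median of 0.22 over the marked promoters and quartiles of -0.01 and 0.42, so it lay above 0 for 74.1% of them. A difference of under 2-fold was found at 98.1%, and 89.7% lay within 1.5-fold of the median. Across promoters the log2 RPM of the 2 lines had a Pearson r of 0.951, a description over genes that share 2 libraries. Of the 95% intervals of single promoters, which cover counting error only and treat reads as independent molecules although none carried a molecular identifier, 3932 lay above 0 and 280 below. No tag fell at 2061 genes in either line. Since RPM sets each library to its total, the shift of 0.22 cannot be told apart from the larger share of tags that the menin-null library holds in enriched regions. Nor can a lower value in every cell be told apart from loss in some cells or on 1 allele. Calls, ratios and intervals below are set against 0 and are not corrected for the shift, unless said otherwise.

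**Figure D1:**
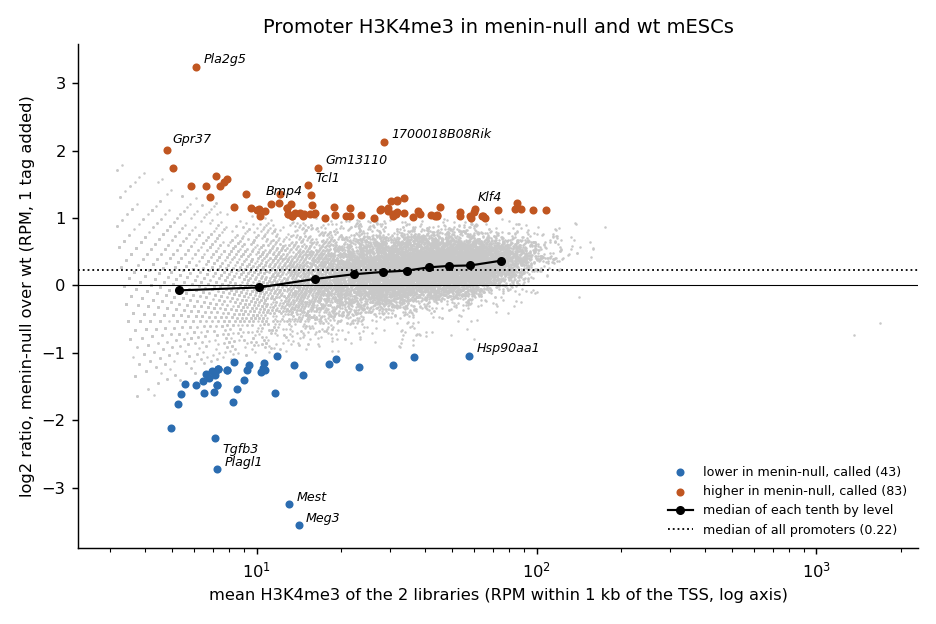
Promoter H3K4me3 in mESCs, with the mean RPM of the 2 libraries on a log axis and the log2 ratio (menin-null over wt, 1 tag added to each count) on the other; each point is 1 of 15212 promoters, and black points join the medians of 10 classes of equal size by level. The 43 promoters called lower lie mostly at low levels, the 83 called higher at all levels, and the median rises from -0.07 to 0.37.

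The ratio depended on the level of the mark. In 10 classes of equal size by mean RPM, the median log2 ratio was -0.07 in the lowest class, where the median level was 5.30 RPM, then -0.03, 0.10, 0.17, 0.20, 0.22, 0.27, 0.29, 0.30 and, at 74.9 RPM, 0.37. The rise from the lowest to the highest class was 0.44. It was 0.38 when tags at 1 position and strand were counted once. After subtraction of the tags found per promoter outside enriched regions, 1.48 in wt and 1.84 in menin-null mESCs, the medians still went from -0.02 to 0.38. The input ratio of the same promoters lay between -0.18 and -0.15 in every class. The spread around the median shrank with level, from an SD of 0.62 to one of 0.21, beside 0.53 and 0.14 that counting error alone gives.

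CpG content went with level and ratio together. The ratio of observed to expected CpG within 500 bp of the TSS was over 0.8 at 5345 marked promoters, nearly all of the 5383 genes in that class, and their median log2 ratio was 0.28. It was 0.21 at 6219 promoters between 0.6 and 0.8, 0.10 at 2696 between 0.4 and 0.6, and 0.06 at the 952 marked promoters under 0.4, a class of 10738 genes. Against promoters of like H3K4me3 level (50 classes), the medians of the same 4 classes were 0, 0, 0 and 0.03, so the order with CpG content was not seen once level was matched. Protein-coding genes had a median of 0.23, lincRNA genes of 0.16 and processed transcripts of 0.17, and against like levels these were 0, -0.01 and 0.

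Around the TSS the difference was largest where the mark was highest. In the first 250 bp after the TSS the mean over marked promoters was 8.09 RPM in wt and 10.2 in menin-null mESCs, a log2 ratio of 0.33, and in the next 250 bp the ratio was 0.30. In the 250 bp before the TSS it was 0.25, and between 750 bp and 1 kb upstream it was 0.14. The bins from 2 to 4 kb downstream lay between 0.07 and 0.17, and those from 4 to 5 kb between -0.09 and 0.09. In the bin from 3000 to 3250 bp downstream the wt H3K4me3 library had 0.160 RPM and the wt input 0.168. The ratios so far from the TSS need thus not be those of the mark. The input went the other way at the TSS, with 0.605 RPM in wt and 0.515 in menin-null mESCs and a ratio of -0.23, and lay between -0.05 and 0.04 from 5 kb to 1 kb upstream. The part of this input difference in the H3K4me3 ratio was not tested.

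**Figure D2:**
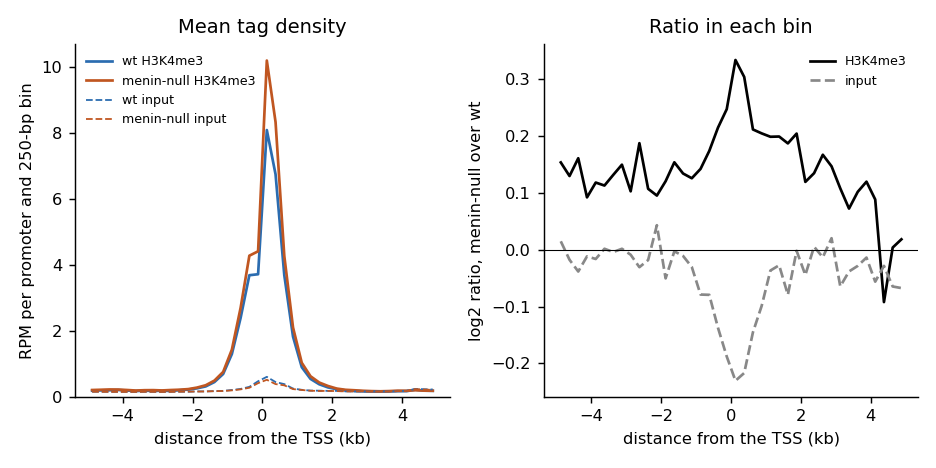
Tags by distance from the TSS (kb) in bins of 250 bp, as mean RPM per promoter for H3K4me3 and input of both lines, and as log2 ratios, menin-null over wt, in each bin. H3K4me3 peaks just after the TSS at 8.09 RPM in wt and 10.2 in menin-null mESCs, where the ratio is 0.33 for H3K4me3 and -0.23 for the input.

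Few promoters differed by 2-fold. With 1 tag added to each count, a difference of at least 2-fold and an exact binomial test of the 2 counts (two-sided, adjusted p of 0.05 by Benjamini-Hochberg over all 15212) called 126 promoters, or 0.828%. In menin-null mESCs 83 were higher (0.546%) and 43 lower (0.283%). The direction of the count hung on the scaling: with the median of marked promoters set to 0, 10 were higher and 65 lower, so the higher share of the calls went from 65.9% to 13.3%. With the median of promoters of like level set to 0, 14 were higher and 29 lower. Some genes share a window, and the 83 promoters were 75 distinct windows and the 43 were 42. The higher promoters had a median of 12.3 RPM in wt and 28.1 in menin-null mESCs, and the lower ones 12.7 and 4.26. Of the lower promoters 38 lay in the lowest 3 of the 10 level classes, and 25 had under 50 tags in all. Of the higher ones 41 lay in the lowest 3 classes, 8 of them in the lowest, and 16 in the highest 3. The median CpG ratio was 0.54 in the lower, 0.63 in the higher and 0.74 in all marked promoters. In the lowest 3 level classes, called or not, it was 0.47, 0.58 and 0.66, so these medians are not set against promoters of like level.

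The sequences just upstream of the counted start of 6 called promoters are shown because these promoters lead the lists in either direction or belong to the pluripotency genes. Each is the 200 bases before the TSS in mm9, 5′ to 3′ on the strand of the gene, with every CG in capitals, and over all marked promoters such a stretch had a median of 15 CG.
Pla2g5, minus strand of chr4:138419381-138419580: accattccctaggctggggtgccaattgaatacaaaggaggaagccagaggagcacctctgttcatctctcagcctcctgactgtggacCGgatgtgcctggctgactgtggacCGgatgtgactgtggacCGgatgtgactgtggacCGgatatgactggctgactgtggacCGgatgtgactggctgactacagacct
1700018B08Rik, minus strand of chr8:124065855-124066054: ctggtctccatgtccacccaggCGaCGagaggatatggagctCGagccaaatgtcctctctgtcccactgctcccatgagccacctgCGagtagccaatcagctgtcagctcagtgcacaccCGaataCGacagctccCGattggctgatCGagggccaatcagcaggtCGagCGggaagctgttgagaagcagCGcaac
Tcl1, minus strand of chr12:106460927-106461126: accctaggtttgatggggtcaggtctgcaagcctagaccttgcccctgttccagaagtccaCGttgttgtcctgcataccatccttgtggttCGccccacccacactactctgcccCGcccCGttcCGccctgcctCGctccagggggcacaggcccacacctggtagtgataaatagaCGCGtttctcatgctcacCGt
Klf4, minus strand of chr4:55544643-55544842: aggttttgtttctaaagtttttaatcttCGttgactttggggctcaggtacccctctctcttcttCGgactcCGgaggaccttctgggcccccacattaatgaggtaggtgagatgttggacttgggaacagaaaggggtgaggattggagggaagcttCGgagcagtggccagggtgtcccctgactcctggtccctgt
Plagl1, plus strand of chr10:12810619-12810818: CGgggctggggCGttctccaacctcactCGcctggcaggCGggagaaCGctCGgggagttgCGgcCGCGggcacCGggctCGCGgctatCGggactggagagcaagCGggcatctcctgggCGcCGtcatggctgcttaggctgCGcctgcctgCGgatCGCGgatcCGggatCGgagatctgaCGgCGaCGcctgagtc
Tgfb3, minus strand of chr12:87419992-87420191: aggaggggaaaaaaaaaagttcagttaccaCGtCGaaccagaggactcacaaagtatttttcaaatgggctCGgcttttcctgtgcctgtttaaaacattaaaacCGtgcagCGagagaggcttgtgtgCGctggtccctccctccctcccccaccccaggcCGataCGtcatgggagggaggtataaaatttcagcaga

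The stretch of Plagl1 held 25 CG and 71% G and C. Those of Pla2g5 and Klf4 held 5 and 4 CG, 1700018B08Rik 11, Tcl1 9 and Tgfb3 8. In the higher promoters as a group the median was 12 CG, in the lower ones 8, without matching for level. The CpG ratio within 500 bp of the TSS was 0.79 at Klf4 and 0.225 at Pla2g5, beside a median of 0.74 over marked promoters. At Plagl1, Tgfb3, 1700018B08Rik and Tcl1 it was 0.84, 0.66, 0.47 and 0.40. The start counted was the annotated one with the most tags, so such a stretch can lie inside a gene that has a start further upstream. It thus need not stand for the CpG content of the whole promoter.

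Among the promoters called higher, Pla2g5, which encodes a secreted phospholipase A2, had the largest difference, from 2 tags (0.822 RPM) in wt to 40 (11.4 RPM) in menin-null mESCs. Its log2 ratio was 3.79, with an interval of 1.84 to 6.88 that rests on the 2 wt tags. 1700018B08Rik came next by the ratio with 1 tag added, with 25 tags (10.3 RPM) in wt and 164 (46.6 RPM) in menin-null mESCs, a ratio of 2.18 (1.57 to 2.85). Of the 10 largest differences it reached the highest level in menin-null mESCs. Gpr37, an orphan receptor of neurons and glia, went from 4 to 28 tags, a ratio of 2.28 (0.76 to 4.25). Gm13110 had 18 and 91 tags and a ratio of 1.81 (1.07 to 2.62). Neto1, a partner of kainate receptors, had 5 and 28 tags (1.95, 0.56 to 3.68), and Slc22a7, an organic anion transporter, had 8 and 39 (1.75, 0.64 to 3.06). Mapk15, Prss42 and Hmha1 had 8 or 9 tags in wt and 35 to 42 in menin-null mESCs. The lower ends of the intervals of these promoters lay between 0.46 and 1.84.

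Genes of the ES cell state were among the promoters called higher. Tcl1, which encodes a coactivator of AKT, had 19 tags (7.81 RPM) in wt and 80 (22.7 RPM) in menin-null mESCs, a ratio of 1.54 (0.81 to 2.35). Klf4, a transcription factor of the naive state, had 105 tags (43.2 RPM) and 307 (87.3 RPM), a ratio of 1.02 (0.69 to 1.35). Dppa2, a chromatin factor of early embryos, had 16 and 49 tags (1.08, 0.24 to 2.00). Klf4 and Dppa2 lay close to the 2-fold limit and were not called once the median of marked promoters was set to 0, nor with each position and strand counted once, while Tcl1 was called in both. Other members of the lists below that were called higher are Tet3, which oxidizes methylated cytosine, with 21 and 64 tags (1.08, 0.35 to 1.86), Bmp4 with 19 and 66 (1.26, 0.51 to 2.08), Wnt11 with 14 and 47 (1.22, 0.33 to 2.19) and the neural factor Pou3f3 with 12 and 47 (1.44, 0.50 to 2.49). Tet3 shares its window with B230319C09Rik. Pbx4, Prpf6, Syce2, Hist1h1a and Zfp711 had ratios of 1.05 to 1.18, and Pbx4 and Syce2 lie on chromosome 8, whose input also differed. Per1 and Cry2, repressors of the circadian clock that were picked out after their values were seen, had ratios of 1.12 and 1.10. None of these genes from Tet3 to Cry2 was called with the median of marked promoters set to 0, and with each position and strand counted once only Bmp4 and Zfp711 were.

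Among the promoters called lower, the imprinted genes Meg3 and Mest had the largest differences, of -3.72 and -3.39. Plagl1, an imprinted zinc finger gene expressed from the paternal allele, came next, with 31 tags (12.7 RPM) in wt and 6 (1.71 RPM) in menin-null mESCs, a ratio of -2.90 (-4.45 to -1.62). Its input was alike, with 9 and 8 tags. Tgfb3, a ligand of the TGF-beta family, had 29 tags (11.9 RPM) and 8 (2.27 RPM), a ratio of -2.39 (-3.73 to -1.23), and lies in a segment of chromosome 12 that is described below. Hus1b, a paralog of the checkpoint clamp gene Hus1, had 20 and 6 tags (-2.27, -3.87 to -0.90). Tapbpl, which edits peptides on MHC class I, had 31 and 13 tags (-1.79, -2.84 to -0.81), and its input differed the same way, with 17 and 4 tags. Vrtn and Degs2, both in the segments of chromosome 12, had 20 and 8 and 43 and 20 tags. 2210408F21Rik and Sap25 closed the 10 largest with ratios of -1.68 and -1.66. Ddc, an imprinted gene that encodes DOPA decarboxylase, had 26 and 12 tags (-1.65, -2.77 to -0.61). Hsp90aa1, a chaperone gene on chromosome 12, was the only lower promoter in the highest 3 level classes, with 189 tags (77.7 RPM) and 132 (37.5 RPM). Gm10720, Gm16869 and Gm10715, close together on chromosome 9 and picked out after their values were seen, were also called lower, and there the inputs held 117 to 221 tags per window, more than the H3K4me3 libraries did.

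Alternatives in the counting left few of the calls untouched. Under 12 alternatives, which changed the duplicates, mismatches, scaling, depth, tag position, input, window and tags added or eased the minimum or the call, 8 of the 83 higher calls were held in all: 1700018B08Rik, Gm13110, Hadh, Pla2g5, Slc29a3, Slco4a1, Tcl1 and Zdhhc18. Of the 43 lower calls 6 were held in all: Hus1b, Meg3, Mest, Plagl1, Tapbpl and Tgfb3. The 12 leave out the higher fold, the higher minimum, the set without chromosome 8 and the segments, and the use of the most upstream annotated start of each gene, which kept 73 of the 83 and 30 of the 43. At 3-fold Hadh, Slc29a3, Slco4a1, Tcl1 and Zdhhc18 were not called, and Pla2g5, Hus1b, Plagl1, Tapbpl and Tgfb3 have under 50 tags and drop out at that minimum. The scaling to the median kept 10 of the 83 and 36 of the 43, and that to promoters of like level kept 14 and 15.

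In PILECs the called promoters were read in libraries with 17682677 or more tags each. Of 82 higher promoters with at least 20 PILEC tags, 46 had a PILEC log2 ratio above 0 (56.1%), beside 30.7% of all 15130 marked promoters read there. The interval lay above 0 for 19 of them, beside 5.96% of all, and below 0 for 9, beside 30.2%. These 19 include Cmtm4, Dync1li2, Car7, Nae1 and B3gnt9-ps, a group on chromosome 8 around which the PILEC input ratio was itself 0.34. They also include pairs that share a window, namely Car7 and Nae1, Tssk6 and Ndufa13, and Miip and Fv1. Of 41 lower promoters 32 had a ratio below 0 (78.0%), beside 69.3% of all. The interval lay below 0 for 14 of the 41, beside 30.2% of all, and above 0 for 3, beside 5.96%, so both counts were near the shares of all. The median PILEC ratio was 0.06 for the higher, -0.23 for the lower and -0.09 for all. At 1700018B08Rik the PILEC ratio was 1.98 (1.29 to 2.73), from 1.17 to 4.64 RPM, close to that in mESCs. Prss42 had 1.60 (0.30 to 3.09) from 7 and 20 tags, and Plagl1 -0.66 (-0.85 to -0.48). Pla2g5 had a PILEC ratio of -0.91 (-2.35 to 0.39) and Tcl1 one of -1.16 (-2.56 to 0.10), both at about 1 RPM or less. Gpr37, at 17.4 and 18.3 RPM, and Neto1 had intervals that hold 0. The PILECs grew from the same 2 lines, so differences between the lines apart from Men1 can enter both comparisons. Not all input differences were of like size in both. The input ratio of chromosome 8 was 0.19 in mESCs and 0.03 in PILECs, and that of chromosome 1 was -0.12 and -0.004. In the 2 segments of chromosome 12 described below it was -0.90 and -0.95 in mESCs and -0.21 and -0.19 in PILECs.

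**Figure D3:**
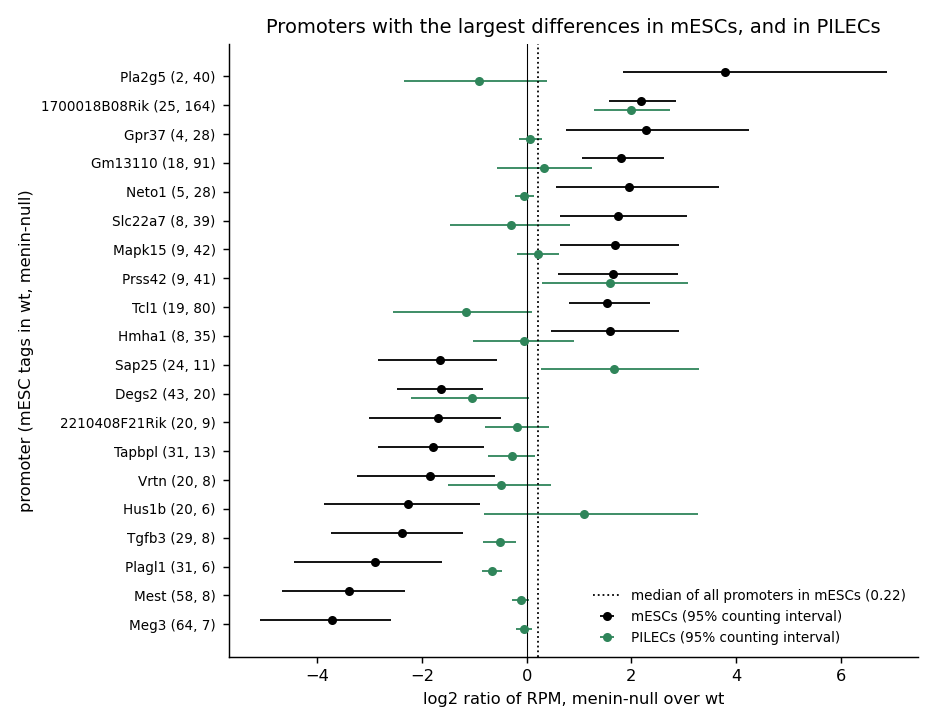
The 10 promoters called higher and the 10 called lower in menin-null mESCs with the largest differences, as log2 ratio of RPM (menin-null over wt) with 95% counting intervals in mESCs and in PILECs; the numbers beside the names are the mESC tags in wt and menin-null. Intervals are wide for promoters with few wt tags such as Pla2g5, and 1700018B08Rik and Prss42 are the higher promoters whose PILEC interval lies above 0.

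Chromosomes differed from one another, and the input differed with them. The median promoter ratio of chromosome 8 was 0.44, which is 0.22 above that of all marked promoters. Of its 817 promoters 17 were called higher (2.08%, beside 0.546% of all) and 2 lower (0.245%, beside 0.283% of all). The input ratio of chromosome 8 was 0.19. Against promoters of like level the chromosome stood 0.15 above, and after division of each ratio by the input ratio around it 0.027 above, with 2 in place of 17 promoters called higher. All windows of up to 20 Mb along chromosome 8 had an input ratio of 0.14 to 0.24 and a promoter ratio of 0.09 to 0.30 above that of all. In wt mESCs the input of chromosome 8 was itself 0.39 above the autosome median on the log2 scale, and in menin-null mESCs 0.59. In PILEC inputs these values were 0.20 and 0.22. Such a height was not particular to chromosome 8. Chromosome 11 stood at 0.38 in wt and 0.33 in menin-null mESC inputs, and at 0.59 and 0.54 in those of PILECs.

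Chromosome 1 lay on the other side, with a promoter median 0.16 below that of all and an input ratio of -0.12. The difference was larger in its distal part: from 120 Mb on, the windows had input ratios of -0.24 to -0.17 and promoter ratios of -0.29 to -0.17 relative to all. Up to 80 Mb the input ratios lay between 0 and 0.01 in size while the promoter ratios were -0.15 to -0.07. From 80 to 100 Mb the input ratio was -0.056 and the promoter ratio 0.002 over 93 promoters. Division by the input left chromosome 1 at -0.058. Chromosome 6 was at -0.09, with an input of -0.04. The 17 chromosomes other than 1, 8 and 12 ranged from -0.09 to 0.05, and their inputs from -0.05 to 0.05. Over 20 chromosomes the promoter medians and the input ratios had a Pearson r of 0.83, and 0.62 without chromosome 8, as a description of points that share the same 4 libraries.

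In 2 segments of chromosome 12 the H3K4me3 at promoters was lower as a whole. They lie from 85.8 to 87.6 Mb and from 107.4 to 112.8 Mb, and the input log2 ratios there were -0.90 (-0.98 to -0.83) and -0.95 (-0.99 to -0.91). All 27 marked promoters of the first and all 38 of the other had a ratio below 0, with medians of -0.83 and -0.67. Of the 43 promoters called lower 11 lie in the segments, 5 in the first and 6 in the other, among them Tgfb3, Vrtn, Degs2, Acyp1, Slc25a29, Begain, Hsp90aa1 and Meg3. The segments hold 65 marked promoters, and of all 15212 marked promoters 0.283% were called lower. After division by the input the promoters of both segments stood at -0.042 relative to all promoters divided the same way, and at -0.015 relative to the undivided median of all, and 4 promoters of chromosome 12 were called lower in place of 12. On the rest of the chromosome 486 promoters had a median 0.02 above that of all, with 1 called lower and 1, Tcl1, called higher. In the PILEC inputs the segments were at -0.21 and -0.19.

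**Figure D4:**
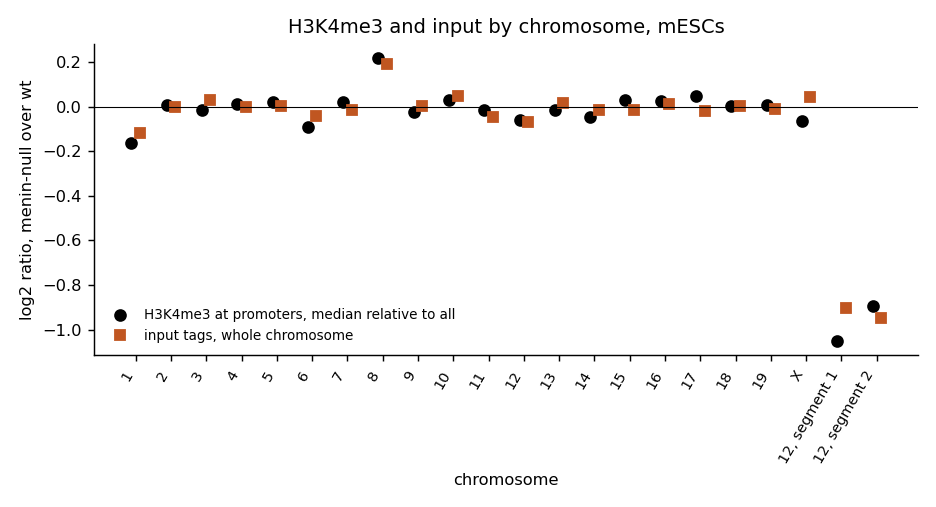
The median promoter log2 ratio (menin-null over wt, relative to all marked promoters) and the log2 ratio of input tags in mESCs for each chromosome and for the 2 segments of chromosome 12. Chromosome 8 stands at 0.22 with an input of 0.19, chromosome 1 at -0.16 with -0.12, and the segments at -1.05 and -0.90 with inputs of -0.90 and -0.95.

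Windows around 3 of the called promoters, picked after the calls were seen and each counting its own centre, are given as a description, beside 0.546% of all promoters called higher, 0.678% of all regions gained and 5.96% of all PILEC intervals above 0. Within 0.2 Mb of 1700018B08Rik 2 of 5 marked promoters were called higher and 4 of 7 enriched regions gained, while the input ratio there was 0.10 (0.01 to 0.20). Within 0.8 Mb of Nae1, also on chromosome 8, 5 of 27 promoters were called higher, the mESC inputs had a ratio of 0.43 (0.37 to 0.49) and those of PILECs one of 0.34 (0.30 to 0.37), and 12 of the 27 PILEC intervals lay above 0. Within 0.5 Mb of Pla2g5 2 of 18 promoters were called higher, namely Pla2g5 and AB041806, the latter with 58 and 182 tags and a ratio above 0 in PILECs too (0.80, 0.53 to 1.08). The input ratio there was -0.003 (-0.08 to 0.07).

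**Figure D5:**
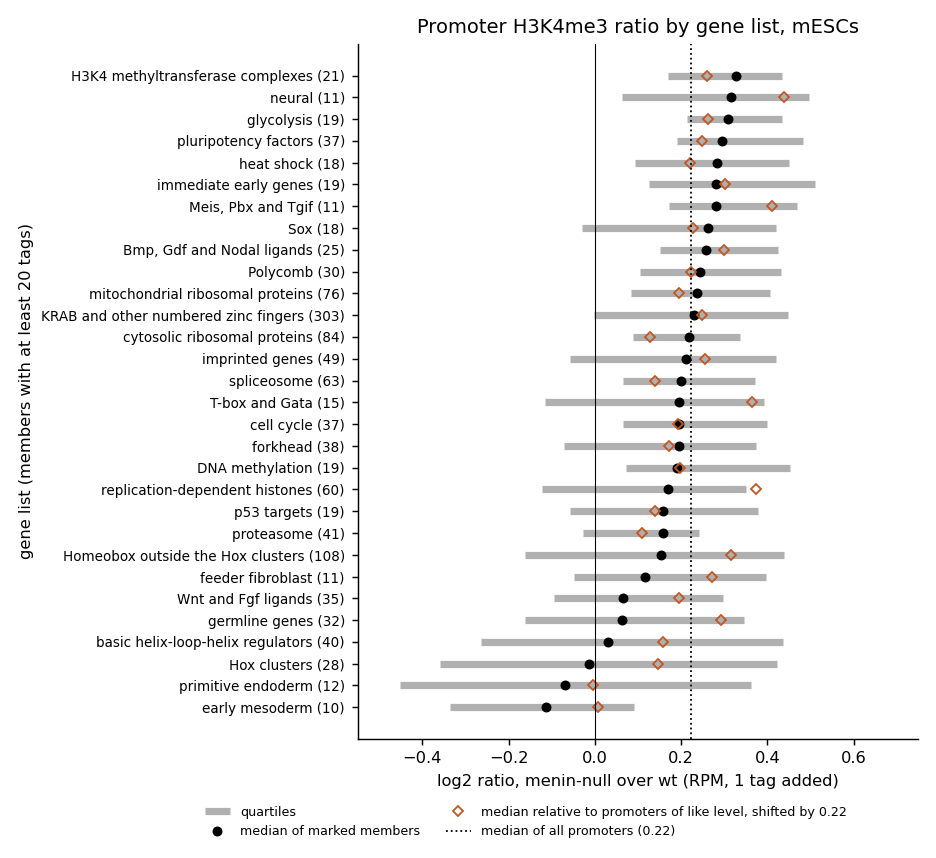
The log2 ratio of promoter H3K4me3 (menin-null over wt, 1 tag added) in 30 gene lists with at least 10 marked members, as median and quartiles, with the median relative to promoters of like level as open marks. The dotted line is the median of all marked promoters, 0.22, and the lists range from 0.33 for H3K4 methyltransferase complexes to -0.11 for early mesoderm.

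Gene lists were set beside the median of all marked promoters, above which 50% lie by definition. Of 30 lists with at least 10 marked members 12 had a median above it and 18 below, and relative to it the medians ran from -0.33 to 0.10. Against promoters of like level they ranged from -0.23 to 0.22. The lists were written with earlier results of these data known, so they describe and do not test. For each list 3 values are given: its median relative to all marked promoters, relative to promoters of like level, and after division by the input relative to the undivided median of all. That median is 0.22 and the median of the divided ratios 0.25, so a last value between 0 and the gap of these 2 lies below that of all promoters divided the same way.

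Pluripotency factors had 37 of 38 promoters marked, and 25 lay above the median of all. Their 3 values were 0.07, 0.03 and 0.12, and the 3 called higher, Klf4, Tcl1 and Dppa2, make 8.11% of the list, beside 0.546% of all marked promoters. The lowest were Tdgf1, the Nodal co-receptor, with 41.5 RPM in wt and 34.7 in menin-null mESCs, and Tet1, with 13 tags in each at the annotated start that was counted. Neither was called. A region in an intron of Tet1, given below, had more tags, 128 and 240, and a ratio of 0.37. Summed over the list, the mark was 1418 RPM in wt and 1804 in menin-null mESCs.

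The H3K4 methyltransferase complexes, of which menin is a part, had all 21 promoters marked, 15 above the median of all and none called, with values of 0.10, which was the highest of the 30 lists, 0.04 and 0.02. Wdr82, a SET1 subunit, was the highest with 50.6 and 82.2 RPM (0.70, 0.39 to 1.02), and Rbbp5, in the distal part of chromosome 1, the lowest with 48.9 and 42.1 RPM (-0.22, -0.58 to 0.14). The H3K4 demethylases had 6 marked promoters and values of 0.08, -0.02 and 0.20. Polycomb genes split evenly, 15 above and 15 below, with 0.02, 0 and 0.13, from Rybp at -0.15 to Pcgf6 at 0.65. Genes of DNA methylation had -0.03, -0.03 and -0.004, and besides Tet3, which was called, Uhrf1 had 44.4 and 75.1 RPM (0.76, 0.43 to 1.09).

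Of the 38 lists imprinted genes had the most lower calls, with 4 of 49 marked promoters (Meg3, Mest, Plagl1 and Ddc), or 8.16%, beside 0.283% of all marked promoters. Their median was near that of all, at -0.01, and at 0.03 against like levels and 0.04 after division by the input. At the other end of the list Ndn, a paternally expressed gene, had 11.5 and 19.6 RPM (0.77, 0.12 to 1.46) and Sgce, next to Peg10, had 8.22 and 13.6 RPM (0.73, -0.05 to 1.56). Of the 49 promoters 3 lie in the segments of chromosome 12.

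Among transcription factors of development, the medians of homeobox and of T-box and Gata genes changed side with the comparison, and those of the other families kept one side in all 3. Homeobox genes outside the Hox clusters had 108 promoters marked and a median of 10.7 RPM in wt and 12.1 in menin-null mESCs. Their median was 0.07 below that of all but 0.09 above promoters of like level, and 0.05 below after division by the input. Dlx5 and Nkx2-5 had the lowest ratios, -1.07 and -0.92, and Pou3f3 and Lhx5 the highest, 1.44 and 1.15, of which only Pou3f3 was called. T-box and Gata genes had -0.03, 0.14 and -0.01, with Tbx4 (-1.02, -1.92 to -0.14) and Gata6 (-0.88, -1.68 to -0.09) at the lower end. Basic helix-loop-helix regulators had -0.19, -0.06 and -0.22 over 40 promoters, from Neurod1 at -1.07 to Hes1, a Notch target, at 0.99 with 31.2 and 62.3 RPM. Hox clusters had 28 of 40 marked, at -0.24, -0.08 and -0.23. Forkhead genes had -0.03, -0.05 and -0.004 and Sox genes 0.04, 0.005 and 0.13. The 11 Meis, Pbx and Tgif promoters had 0.06, 0.19 and 0.15 with Pbx4 called higher, and the 8 Pax promoters 0.15, 0.28 and 0.22.

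Among the lists of early lineages, those of early mesoderm and primitive endoderm had some of the lowest medians, and that of neural genes one of the highest. Early mesoderm genes had 10 marked promoters, 8 of them below the median of all, and values of -0.33, -0.22 and -0.21, with Kdr at 24.3 and 18.5 RPM and Gsc at 14.4 and 10.8 as the lowest and Eomes at 26.3 and 37.0 (0.49, 0.05 to 0.95) and T at 11.5 and 13.9 as the highest. Primitive endoderm genes had 12, 8 of them below, and -0.29, -0.23 and -0.35, with Gata6 at 13.6 and 7.39 RPM and Dab2 at 10.3 and 5.69 as the lowest and Sox7 at 8.22 and 11.9 and Lama1 at 20.1 and 29.0 (0.53, 0.02 to 1.05) as the highest. Trophoblast genes had 9 and -0.27, -0.03 and -0.22. Neural genes had 7 of 11 above the median of all and values of 0.09, 0.22 and 0.15. Otx2 was their lowest, with 13.6 and 7.39 RPM (-0.88, -1.68 to -0.09). The quartiles of the neural log2 ratios, 0.06 and 0.50, overlapped those of primitive endoderm genes, -0.45 and 0.36. Differences between the lineage lists were not tested. The 11 marked genes of the feeder fibroblast list had -0.11, 0.05 and -0.10. No member of these 5 lists was called, beside 0.828% of all marked promoters, a share at which lists this small need hold none.

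The 2 lists of ligands had medians on different sides of that of all, and the difference between them was not tested. Wnt and Fgf ligands had 25 of 35 promoters below the median of all and values of -0.16, -0.03 and -0.10, and Wnt11 was called higher while Fgf9, at 19.7 and 10.8 RPM (-0.87, -1.52 to -0.22), and Wnt2 were lowest. Bmp, Gdf and Nodal ligands had 15 of 25 above, at 0.04, 0.08 and 0.08. Bmp4 was called higher and Tgfb3 lower, and Lefty1, an inhibitor of Nodal, had 13.6 and 26.4 RPM (0.96, 0.38 to 1.58) without passing 2-fold.

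Germline genes had 32 of 48 promoters marked and a median 0.16 below that of all, but 0.07 above promoters of like level and -0.09 after division by the input. Called higher were Syce2, a synaptonemal complex gene on chromosome 8, with 24.7 and 52.0 RPM, and 1700018B08Rik. They make 6.25% of the list, beside 0.546% of all marked promoters, in a list written with earlier results of these data known. Of 28 genes of the 2-cell stage 2 were marked, and Eif1a had 73.6 and 95.5 RPM.

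The 84 promoters of cytosolic ribosomal proteins had a median of 57.8 RPM in wt and 66.0 in menin-null mESCs, at -0.003 relative to all, -0.09 against like levels and 0.01 after division by the input. The 76 of mitochondrial ribosomal proteins had 0.01, -0.03 and 0.04, the 63 of the spliceosome -0.02, -0.08 and 0.02 with Prpf6 called higher, and the 37 of the cell cycle -0.03, -0.03 and 0.02. Proteasome genes had 29 of 41 below the median of all and -0.06, -0.11 and -0.06. Glycolysis genes had 14 of 19 above and 0.09, 0.04 and 0.17, while Gapdh had 83.5 and 86.4 RPM. Replication-dependent histones had -0.05, 0.15 and -0.06 over 60 promoters with Hist1h1a called higher. Targets of p53 had -0.06, -0.08 and -0.01, and the 7 CDK inhibitors, a family that holds known menin targets of the islet, -0.01, -0.08 and 0.14, with Cdkn1b at 50.2 and 52.6 RPM and Cdkn2c at 18.9 and 27.9. Immediate early genes had 0.06, 0.08 and 0.10, with Jund, on chromosome 8 and coding for a partner of menin, at 71.5 and 131 RPM (0.87, 0.62 to 1.13). Heat shock genes had 0.06, -0.003 and 0.06, and Hsp90aa1 was called lower.

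Among large families, KRAB and other numbered zinc finger genes had 303 of 367 promoters marked and 0.01, 0.03 and 0.01, with Zfp711 called higher (0.330% of the list, beside 0.546% of all). Olfactory and vomeronasal receptors had 5 of 1438 marked, and keratins 5 of 92. The clustered protocadherins had 3 of 24 marked, at -0.47, -0.35 and -0.45.

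Enriched regions were then searched without regard to genes. Windows of 200 bp with at least 7 tags from both libraries, joined over gaps of up to 400 bp and kept at 1 kb or more and 2 times the input density, gave 10330 regions, of which 9339 (90.4%) reached within 1 kb of a TSS and 991 were distal. By the rule used for promoters 70 regions were gained in menin-null mESCs (0.678%) and 11 lost (0.106%). With the median of marked promoters set to 0 these counts were 10 and 28. Promoter regions had a median log2 ratio of 0.26 and distal ones of 0.19, and against regions of like level 0 and 0.02. Of the distal regions 22 were gained (2.22%) and 2 lost, beside 48 gained (0.514%) and 9 lost among promoter regions. These shares are not matched for level, whose median was 17.3 RPM in distal and 38.9 in promoter regions. With the median of regions of like level set to 0, 5 distal regions were gained. Introns held 156 regions with 7 gained, exons 274 with 5 and intergenic sequence 561 with 10. Regions of 1000 to 1400 bp had a median of 0.23, and those over 4 kb had 0.34 with none called.

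The largest gain lay between genes on chromosome 4, at chr4:138262401-138263400, 17307 bp from the TSS of the phospholipase gene Pla2g2c and in the same gene cluster as Pla2g5. It had 9 tags (3.70 RPM) in wt and 77 (21.9 RPM) in menin-null mESCs, a ratio of 2.56 (1.57 to 3.75), and in PILECs 28 and 110 tags and a ratio of 2.06 (1.45 to 2.71). The 200 bases of it with the most tags in menin-null mESCs are shown because the gain was found in both cell types, from the plus strand of mm9 with CG in capitals.
gained region near Pla2g2c, chr4:138263001-138263200: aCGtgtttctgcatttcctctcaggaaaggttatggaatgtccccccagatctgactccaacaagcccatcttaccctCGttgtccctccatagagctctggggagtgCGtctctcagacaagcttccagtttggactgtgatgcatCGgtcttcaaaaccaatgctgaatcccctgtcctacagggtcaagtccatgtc

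This stretch held 4 CG and 51% G and C. The region in an intron near Sigirr, which encodes a brake on interleukin-1 receptors, had 6 and 41 tags (2.24, 1.00 to 3.77), and that of 1700018B08Rik 25 and 155. An intronic region whose nearest TSS, 7035 bp away, is that of the H3K4 methyltransferase gene Setd1b had 9 and 47 tags (1.85, 0.81 to 3.07). Others of the 10 largest lay at the promoters of Slc22a7 and Pou3f3, in exons near Dlgap3 and AI854703, in an intron on chromosome 8 at chr8:123902401-123903800, which is 162054 bp from 1700018B08Rik, and 4005 bp from Ogdhl. Of 64 gained regions with at least 20 PILEC tags 44 had a PILEC ratio above 0, beside 32.2% of all regions, and the interval lay above 0 for 23, beside 7.07%. Of the 70 gained regions 17 lie on chromosome 8, which holds 640 of all 10330.

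Lost regions were fewer. The 2 largest losses were at Meg3 and in a region 12411 bp from its nearest annotated start, and the next at Mest. Kif21b, a kinesin gene, had 22 and 11 tags (-1.53, -2.72 to -0.43). An intergenic region at chr17:17627801-17629400, 42017 bp from Lix1, had 39 and 24 tags (-1.23, -2.03 to -0.46) and a PILEC ratio of -1.91 (-3.68 to -0.46). Acyp1, Slc25a29, Hsp90aa1 and Begain, in the segments of chromosome 12, and 9530026P05Rik and Zfp354b made up the rest. Of the 11 lost regions 6 lie in these segments, which hold 42 of all 10330.

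The 5 widest regions belonged to AI480526 (9200 bp), the retinoic acid receptor gene Rarg (7400 bp), Set (7200 bp), Brd2 (7000 bp) and Rara (7000 bp). AI480526 had 274 and 561 tags (0.50, 0.29 to 0.72), Rarg 241 and 457 (0.39, 0.16 to 0.62), Set 425 and 696 (0.18, 0.003 to 0.36), Brd2 520 and 1055 (0.49, 0.34 to 0.64) and Rara 263 and 577 (0.60, 0.39 to 0.82). None was called. Distal regions within 20 kb of pluripotency genes, 11 near 9 genes, had a median of 0.28 beside 0.26 for all regions. The region 5963 bp from a start of Zfp42, the ES cell marker Rex1, in an exon, was gained with 13 and 51 tags (1.44, 0.54 to 2.44). It was the 1 gained of the 11, beside 2.22% of all distal regions. It lies on chromosome 8, and the input ratio around it was 0.19. The regions in introns of Tet1, with 128 and 240 tags and 57 and 107, had ratios of 0.37 and 0.38. Around them the input ratio was 0.25.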

How the data were processed

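The deposited files of the authors list 1 line per mapped tag. The values used were tag start positions on mm9, the build in the submitters' processing notes, and a whole number per tag, deposited in the place where the format holds a score and named in no source, was not used. Per the methods, 36-bp reads with a unique place and at most 2 mismatches were kept, yet 1.09% and 1.20% of the H3K4me3 tags of mESCs had more and stayed in.

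Tags were shifted by 125 bp, for fragments of 250 bp, and counted within 1 kb of the TSS or in enriched regions (200-bp windows at a Poisson p of 1e-05, 7 tags), scaled to the library total. Calls needed 20 tags, 2-fold with 1 tag added, and an adjusted p of 0.05 (exact binomial test, Benjamini-Hochberg). Division by input used 200-kb bins, smoothed by a running median over 5. The genes named by rule were the 10 largest calls each way, the 10 largest gained and lost regions, the called and the 2 highest and 2 lowest members of each list, Men1 and the 5 widest regions. Other genes and regions named fall outside this rule. They are to be taken as picked after their values were seen, also where that is not said beside them. The last place was tied between Hmha1, Grrp1 and Sipa1 among higher promoters, of which Hmha1 was named. Among gained regions it was tied between those near Ogdhl and at Gm13110, of which the former was named. Members and lists were chosen with earlier results of these data known. Alternatives changed the duplicates, mismatches, scaling, depth, shift, input, window, start, tags added, minimum, fold and region length. The scripts were tested on simulated data. Python 3.11.15, numpy 2.4.6, pandas 2.3.3, scipy 1.17.1 and matplotlib 3.10.9 were used.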

Additional observations from a re-analysis of the deposited data

Results flagged for a closer look

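At 12 called promoters the PILEC interval lay on the other side of 0 from the mESC call. It lay below 0 for 9 of 82 higher promoters, beside 30.2% of all marked promoters, and above 0 for 3 of 41 lower ones, beside 5.96%. Each cell type had 1 library per genotype, and the difference between the cell types was not itself tested. Of the promoters called higher in menin-null mESCs, the PILEC log2 ratio was -0.74 at Ror2, -0.39 at Zdhhc18, -0.38 at Gjd3, -0.32 at Prpf6, -0.24 at Per1, -0.24 at Slc29a3, -0.23 at Nptxr, -0.19 at Znf512b and -0.14 at Dgke, while their mESC ratios ran from 1.03 at Ror2 to 1.40 at Slc29a3. Of those called lower, it was 0.40 at 4933417D19Rik, 1.44 at Rgs14 and 1.67 at Sap25, beside -1.28, -1.58 and -1.66 in mESCs. Rgs14 had 9 and 23 PILEC tags and Sap25 6 and 18, so both rest on few tags.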

How the results depend on the processing

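No paired analysis was possible because each group has 1 library. Of 200 alternative values for the comparisons 148 stayed near the value reported and 52 moved, and the cause of each move was not tested beyond what its setting changes. With 1 tag per position and strand, 24 promoters were lower and 48 higher, the rise with level was 0.38 and the gap between the highest and lowest CpG class 0.16, in place of 0.22. With the median of marked promoters at 0, 65 were lower and 10 higher, 28 regions lost and 10 gained, 5 of them distal. Thinning the menin-null library gave a rise with level of 0.38. Division by the input gave 0.027 for chromosome 8, -0.058 for chromosome 1, -0.032 for chromosome 6 and -0.042 for the segments. Without chromosome 8 and the segments, 28 promoters were lower and 5 regions lost. With 4 tags added, 52 promoters were higher and 43 regions gained, with a rise of 0.50 and a CpG gap of 0.26. A minimum of 10 tags gave a rise of 0.54 and a gap of 0.32, and one of 50 tags gave 0.36 and 0.087 with 18 promoters lower. At 1.5-fold 93 promoters were lower and 1105 higher, 48 regions lost and 967 gained, and 38.1% of the higher promoters were above 0 in PILECs. At 3-fold these counts were 11, 6, 3 and 6. The fold alone, with no test, gave 139 lower and 145 higher promoters and 17 lost regions. Regions of 600 bp or more gave 46 lost and 120 gained, 48 of the gained distal, with distal minus promoter at -0.12. Relative to promoters of like level, a setting chosen after the data were seen, 14 were higher, 17 regions lost and 13 gained (5 distal), the rise with level was 0 by construction, chromosome 8 was at 0.15, the segments at -0.86, the CpG gap -0.035 and distal minus promoter 0.016, in place of -0.07, which are the changes of sign among the 52,, and 0% of the lower and 71.4% of the higher promoters were above 0 in PILECs. Of 519 values for 34 named promoters 420 stayed and 99 lost the call, and of 390 for 30 lists 7 moved. Subtraction of background, the profile with other tags and the PILEC values under other calls were also chosen after the data were seen. Marked promoters had a median of 190 tags, and 25 of the 43 lower promoters had under 50, where the counting intervals are wide.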
